A study of Mus musculus with 18 samples.

Results

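The vascular endothelial growth factor (VEGF) and angiopoietin pathways were followed in single cells of the mouse heart through 10 genes. They comprised the ligands Vegfa, Vegfb, Vegfc, Angpt1 and Angpt2, the receptors Kdr, Flt1, Flt4 and Tek, and the co-receptor Nrp1. The genes were listed by name, and all 10 were found among the 35843 Ensembl genes of the count matrices.

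VEGF ligands are secreted proteins that bind receptor tyrosine kinases on endothelial cells and drive the growth and survival of blood and lymphatic vessels. Angiopoietins act on the receptor Tie2, encoded by Tek, where Angpt1 stabilises vessels and Angpt2 can oppose it. In the heart, cardiomyocytes (CMs) are known as a source of Vegfa and Vegfb, and the dense capillary bed around them carries the receptors, so that a sender and a receiver cell class can be looked for in each library.

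Cells came from hearts of mice given as Myh6/Esr1-Tomato in the labels, a cross of a Myh6-cre/Esr1 and an R26-tdTomato line in which a Cre under the CM promoter Myh6, activated by tamoxifen given to the mothers from birth to day 4, switches on a red reporter. The 12 wild-type samples were taken at postnatal days 4, 7, 14 and 28 (P4, P7 and P14 with 2 samples each, P28 with 6), from 11 animals named in the well reports, and the other 6 samples, labelled P28 Adult, held the same strain after lentivirus was injected into the ventricle at P1. That virus carried a short hairpin against Jun (shJun), which encodes a subunit of the transcription factor AP-1, or a non-targeting hairpin (shNT), in 2 animals each. The virus is described as infecting dividing neonatal CMs, and no file used here marks the cells that took it up. Each knockdown sample mixed cells of 1 shJun and 1 shNT animal, which the well reports tell apart. Each sample was 1 nanowell chip, and P4 and P7 hearts were digested with a kit whereas P14 and P28 hearts were perfused, so age, chip and digestion cannot be told apart.

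Levels are given as CPM, the unique molecular identifiers (UMIs) of a gene over all gene UMIs of the cells of 1 class in 1 animal, scaled to the usual count base of this unit. UMIs were not divided by gene length, so levels are compared between classes or animals for 1 gene and not between genes. Mitochondrial genes took 21.2 to 74.8% of all gene UMIs of an animal and were left out of the total. Of 15993 wild-type and 7482 knockdown cells, 12794 and 7057 passed the filter, and chips held between 5568908 and 79300417 gene UMIs. Cell classes were rebuilt from clusters named by fixed markers, with the 10 genes left out of clustering, and between 0 and 27.6% of passing wild-type cells of a stage stayed unnamed. In the knockdown animals this share was 7.43 and 32.4% with shJun and 5.59 and 22.5% with shNT, and it included 1 cluster of 333 cells (shJun mouse 2) and 1 of 395 cells (shNT mouse 2) whose leading score was that of CMs but lay within the margin of the next class. The CM-like cells of each animal used held all 8 CM markers. At P28, nearly all CM-like cells came from chips of the CM fraction and most cells of the other classes from chips of the non-CM fraction, so class and chip cannot be told apart there. Of 5051 well barcodes 4890 occur on several chips, since chips share their barcodes by design, and a barcode was read within its chip. The classes used were CM-like (2577 wild-type cells), endothelial-like (2035), fibroblast-like (2402), macrophage-like (1125), endocardial-like (429) and mural-like (479). At P14, 440 of the 479 CM-like cells (296 of mouse 1 and 144 of mouse 2) form 1 cluster in which all 8 CM markers were detected, but whose 10 leading genes hold the mural marker Acta2 and no CM marker. CM-like P14 levels are therefore mainly levels of that cluster, and CM-like log2 changes from P4 to P28 are also given without it. Of the 1747 CM-like cells of P28, clusters of 531, 405 and 92 cells also held no CM marker among their 10 leading genes. All 8 CM markers were detected in each of them, and the leading genes of the 92 cells include Rgs1, Ccl4 and Cxcl2. The CM-like clusters of the knockdown animals held no CM marker among their leading genes either. The part of these P28 clusters in the changes from P4 was not tested. At P4, 205 of the 312 CM-like cells form 1 cluster whose leading genes hold Sln, Myl7, Nppa and Mybphl, known from atrial CMs. P4 and P28 CM-like cells can therefore differ in heart chamber as well as in age. P7 gave only 39 CM-like cells, 28 of them in the 1 mouse that entered the comparisons. In cell mixtures summed this way, fewer expressing cells and less RNA per cell cannot be told apart.

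The sequence upstream of a start site is shown for Vegfa and Vegfb, ligands with their highest mean in CM-like cells, and for the receptors Kdr and Flt1, because Vegfb, Kdr and Flt1 passed the test between P4 and P28 in CM-like cells. Sequences are from RefSeq (GRCm38.p6), which gave 9 promoters for 8 of the 10 genes, and each is the 250 bases before the start, 5′ to 3′ on the strand of the gene. Capitals mark ACGTG or GCGTG on either strand, the core of sites bound by hypoxia-inducible factors. All 4 genes are protein coding and lie on the minus strand of GRCm38, with Vegfa (ENSMUSG00000023951) at chr17:46016993-46032369, Vegfb (ENSMUSG00000024962) at chr19:6982473-6987651, Kdr (ENSMUSG00000062960) at chr5:75932827-75978458 and Flt1 (ENSMUSG00000029648) at chr5:147561604-147726011. Of the other genes Tek lies on chromosome 4, Vegfc, Nrp1 and Angpt2 on chromosome 8, Flt4 on chromosome 11 and Angpt1 on chromosome 15. The Vegfa window is chr17:46032378-46032627, that of Vegfb chr19:6987652-6987901, that of Kdr chr5:75978456-75978705 and that of Flt1 chr5:147726012-147726261.
Vegfa: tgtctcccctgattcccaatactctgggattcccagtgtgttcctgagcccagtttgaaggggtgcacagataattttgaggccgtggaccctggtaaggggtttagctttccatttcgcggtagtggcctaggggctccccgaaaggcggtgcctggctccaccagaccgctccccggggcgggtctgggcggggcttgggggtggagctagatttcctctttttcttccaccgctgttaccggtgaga
Vegfb: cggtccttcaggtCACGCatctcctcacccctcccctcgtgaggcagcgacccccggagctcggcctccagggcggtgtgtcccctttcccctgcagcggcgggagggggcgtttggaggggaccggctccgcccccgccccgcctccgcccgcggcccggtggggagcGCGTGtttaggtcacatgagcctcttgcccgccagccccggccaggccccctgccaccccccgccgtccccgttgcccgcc
Kdr: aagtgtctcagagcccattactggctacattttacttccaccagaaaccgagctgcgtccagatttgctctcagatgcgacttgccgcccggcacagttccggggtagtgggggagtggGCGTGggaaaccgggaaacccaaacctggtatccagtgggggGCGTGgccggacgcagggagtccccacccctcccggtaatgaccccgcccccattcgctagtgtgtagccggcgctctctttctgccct
Flt1: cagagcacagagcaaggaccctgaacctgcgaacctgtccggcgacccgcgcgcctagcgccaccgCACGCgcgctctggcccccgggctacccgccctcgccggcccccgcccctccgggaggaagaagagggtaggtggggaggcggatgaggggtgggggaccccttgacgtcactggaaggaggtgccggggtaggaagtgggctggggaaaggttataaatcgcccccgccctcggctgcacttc
Vegfb held 2 matches, 237 and 81 bases before the start, Kdr 2, at 131 and 89 bases, and Flt1 1, at 184 bases, whereas the Vegfa window shown held none. A second Vegfa start in the table, inside the gene, had 2 matches, 218 and 211 bases before it. Either motif was found in 5 of the 9 promoters of the 10 genes and in 38.6% of 32851 promoter windows of the same length. The AP-1 motif TGANTCA, which binds Jun, was found in 0 of the 9 promoters and in 6.75% of all windows. A match in letters is not a bound site, and a window of 250 bases leaves out enhancers.

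To see which cells send and which receive, the level of each gene was first set side by side across classes in the wild-type animals. These levels are a description without a test, since the classes were drawn from the same cells. Vegfa, the main ligand of Kdr, stood at 117 ± 72.4 CPM (SD, n = 10 animals) in CM-like cells and at 79.5 ± 54.7 CPM (n = 11) in fibroblast-like cells. Endocardial-like cells followed at 40.8 ± 25.7 CPM (n = 9), mural-like at 39.7 ± 30.1 (n = 5), endothelial-like at 25.9 ± 14.1 (n = 11) and macrophage-like at 15.02 ± 8.27 CPM (n = 11). Each step in this order was smaller than the SD of the animals. CM-like cells were nevertheless above endothelial-like cells of the same animal in 10 of 10 animals and fibroblast-like cells above endothelial-like cells in 11 of 11, while CM-like cells exceeded fibroblast-like cells in 7 of 10.

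Vegfb, a ligand of Flt1 that is linked to fatty acid handling of heart muscle, was clearest in CM-like cells. It reached 246 ± 130 CPM (n = 10) in CM-like cells, and this step above the next class, mural-like cells at 85.1 ± 61.9 CPM (n = 5), was the only one in its order that exceeded the SD. Endothelial-like cells held 34.4 ± 27.8 CPM and fibroblast-like cells 25.9 ± 18.8 CPM (n = 11 each). CM-like cells were highest of the 4 large classes in 9 of 10 animals, the exception being 1 animal in which macrophage-like cells led. Vegfc, the ligand of Flt4 that drives lymphatic growth, was low everywhere, with 21.0 ± 13.2 CPM in endothelial-like, 14.7 ± 16.0 in fibroblast-like and 3.31 ± 3.92 CPM in CM-like cells, and it was higher in endothelial-like than in CM-like cells in 10 of 10 animals.

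Among the 6 classes used, the VEGF receptors had their highest mean in endothelial-like cells. Kdr, which encodes VEGFR2, stood at 761 ± 357 CPM in endothelial-like cells (n = 11), between 342 and 1665 CPM in single animals. No animal reached this range in CM-like (25.6 to 147 CPM), fibroblast-like (4.66 to 163) or macrophage-like cells (3.41 to 277). Endocardial-like cells were next at 218 ± 152 CPM (n = 9) and lay below endothelial-like cells in 8 of 9 animals. Flt1, which encodes VEGFR1, a receptor that also traps ligand, was at 599 ± 206 CPM in endothelial-like, 384 ± 143 in endocardial-like and 139 ± 90.2 CPM in mural-like cells, and these 2 steps exceeded the SD. Flt4, which encodes the lymphatic receptor VEGFR3, reached only 24.1 ± 12.9 CPM in endothelial-like cells, against 10.2 ± 9.71 CPM (n = 5) in mural-like cells, the next of these 6 classes. Nrp1, a co-receptor for VEGF and class 3 semaphorins, was found in all 6 classes. Its mean ran from 743 ± 192 CPM in endothelial-like and 623 ± 155 in endocardial-like cells to 163 ± 41.2 CPM in CM-like cells, and the classes between them, with 349.7 ± 69.5 in mural-like, 312 ± 127 in macrophage-like and 269.96 ± 127 CPM in fibroblast-like cells, did not differ beyond the SD. Kdr, Flt1, Flt4 and Nrp1 were each highest in endothelial-like cells among the 4 large classes in 10 of 10 animals.

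**Figure D1:**
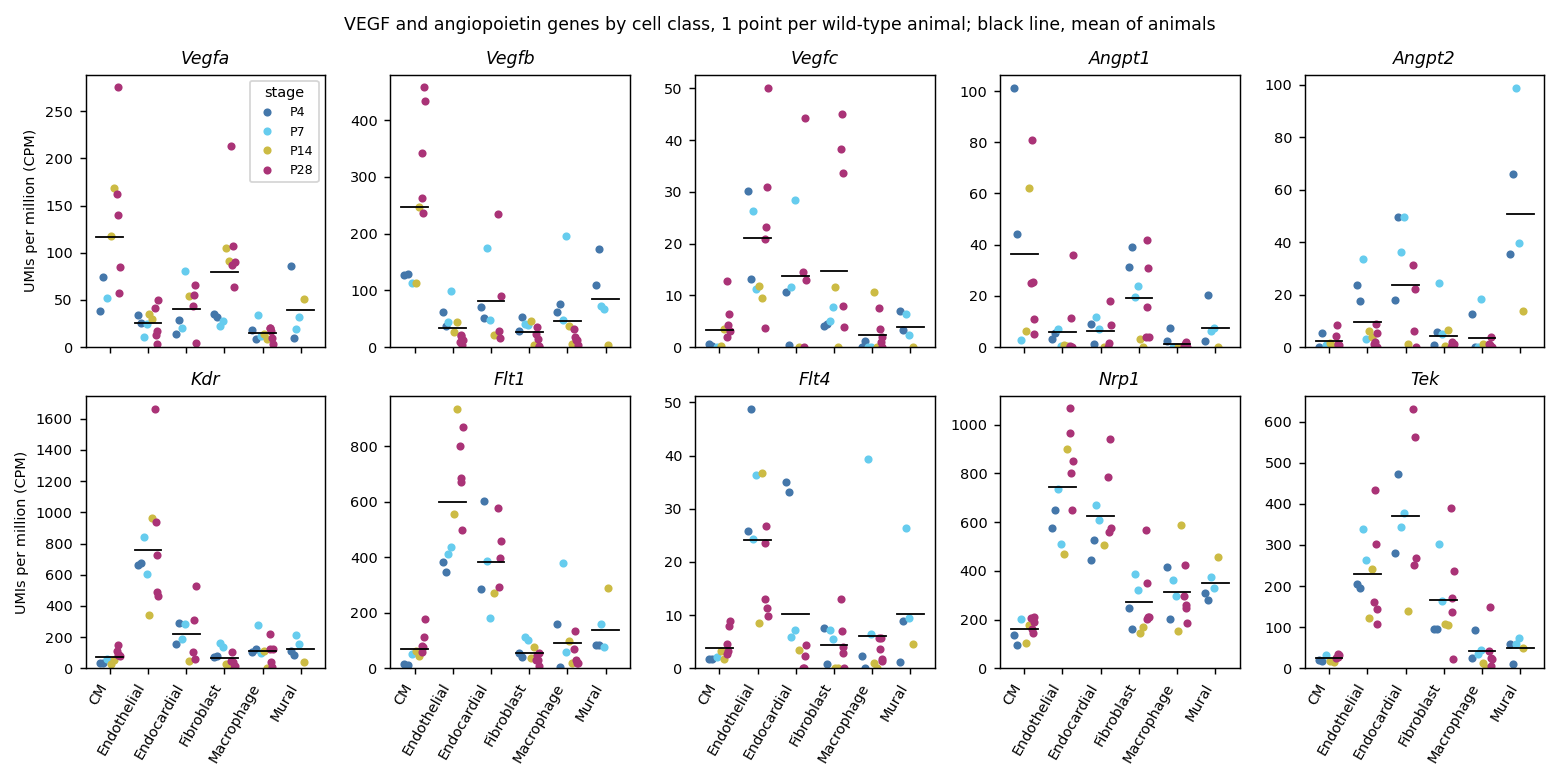
Level of each of the 10 genes in CPM (vertical axis, linear and different for each gene) in 6 cell classes, with 1 point per wild-type animal coloured by stage and a black line at the mean. The receptors in the lower row peak in endothelial-like or endocardial-like cells, with Kdr at 342 to 1665 CPM in endothelial-like cells, whereas Vegfa and Vegfb have their highest mean in CM-like cells.

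RNA outside cells can give UMIs in any well, so the negative control wells were read beside the cells. The methods do not say whether these wells received cell suspension, so they cannot bound the RNA outside cells. In 90 negative control wells with 51790 gene UMIs in all, Kdr had 33 UMIs, 26 of them in 1 well, Vegfb 21, Nrp1 11 and Flt1 9, while Vegfc and Angpt2 had 0. That is a mean of 0.367 Kdr UMIs per well, against 12.7 per endothelial-like, 2.21 per fibroblast-like, 1.65 per macrophage-like and 1.37 per CM-like wild-type cell. Mean Vegfb was 0.233 UMIs per control well against 4.54 per CM-like cell. Cells were also thinned to 2000 UMIs each, to compare the share of cells with a UMI at 1 depth. At P28, Kdr was then seen in 45.9% of 571 endothelial-like cells (exact 95% interval 41.7 to 50.1%) and in 11.2% of 786 macrophage-like cells (9.08 to 13.6%), a class that should lack it, with 13.3% of 1596 CM-like cells (11.7 to 15.05%) and 16.0% of 244 T-like cells (11.6 to 21.2%). Before thinning the shares were 62.5, 28.6 and 35.2%, at median depths of 6383, 9286 and 8610 UMIs per cell. Kdr in CM-like cells thus lay between the shares of both immune classes, and the part of free RNA in it was not tested. Vegfb was seen in 36.2% of thinned CM-like cells (33.8 to 38.6%) against 3.44% of macrophage-like cells (2.28 to 4.96%). Thinning left out 53 endothelial-like, 54 macrophage-like and 151 CM-like P28 cells, and these intervals cover counting error only.

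Tek was the exception among the receptors. Its mean was highest in endocardial-like cells (369.7 ± 159 CPM, n = 9), followed by endothelial-like cells (229 ± 99.9, n = 11) and fibroblast-like cells (166 ± 106, n = 11), steps within the SD. The endocardial-like cells of P28 form 1 cluster of 156 cells that may be mixed. It scored 3.126 for endocardial and 3.079 for epicardial markers, and its leading genes hold the epicardial marker Upk3b. A step beyond the SD came only below fibroblast-like cells, with mural-like cells at 50.3 ± 23.5 (n = 5), macrophage-like at 41.7 ± 43.4 (n = 11) and CM-like at 24.8 ± 7.23 CPM (n = 10). Endocardial-like cells exceeded endothelial-like cells of the same animal in 8 of 9 animals, although Kdr ran the other way in 8 of 9. Fibroblast-like cells exceeded macrophage-like cells in Tek in 11 of 11 animals. The Tek values in fibroblast-like cells were 95.6 and 94.4 CPM at P4, 302 and 164 in the P7 mice, 108 and 106 at P14 and 389.6, 171, 136, 23.3 and 236 CPM at P28. The P28 animals spanned the values of all earlier stages.

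The number of Tek UMIs per Kdr UMI was then taken in each animal as a description. In endothelial-like cells the ratio lay between 0.0962 and 0.461 with a median of 0.311 (11 animals). In fibroblast-like cells it lay between 1.19 and 13.7 with a median of 3.18 (11 animals), so that the 2 ranges did not overlap. Some of the high fibroblast-like ratios rested on few Kdr UMIs. These were 13 for the 13.7 of P28 mouse 5, 5 for the 13.2 of P14 mouse 2 and 5 for the 5.0 of P28 mouse 4. It was 0.508 to 9.20 with a median of 1.801 in endocardial-like cells (9 animals), 0.179 to 0.658 in CM-like cells (10 animals) and 0 to 0.762 in macrophage-like cells (11 animals). The ratio is one of UMIs, not per length, and is compared between classes only. The endocardial-like range overlapped that of fibroblast-like cells, and the part of RNA from other cells in these ratios was not tested. In the fibroblast-like cells of the knockdown animals the ratio was 0.532 and 1.62 in the shNT and 0.493 and 0.648 in the shJun animals, below the wild-type range in 3 of the 4. These sums also held 14785 to 46001 CPM of the 8 CM markers, against 575 to 10399 CPM in the wild-type animals, and 1845 to 3186 CPM of the 8 endothelial markers, against 306 to 1712 CPM. The part of such RNA in the ratio was not tested. In cells thinned to 2000 UMIs, Tek was seen in 17.7% of 690 fibroblast-like cells (14.9 to 20.7%) and in 5.98% of 786 macrophage-like cells (4.43 to 7.87%) and 9.84% of 244 T-like cells (6.40 to 14.3%) at P28, and before thinning in 33.2% of fibroblast-like and 18.8% of macrophage-like cells, at median depths of 10343 and 9286 UMIs.

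**Figure D2:**
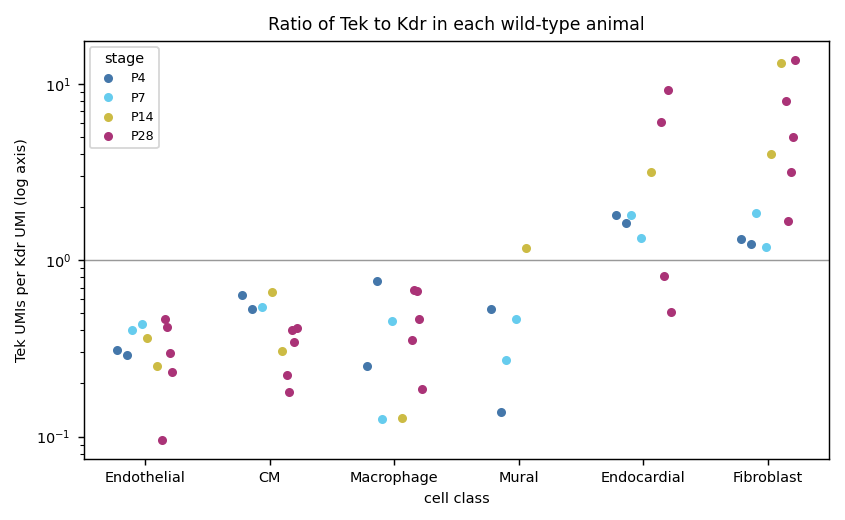
Tek UMIs per Kdr UMI (vertical axis, log scale) by cell class, with 1 point per wild-type animal coloured by stage and a grey line at 1. Endothelial-like animals lie between 0.0962 and 0.461 and fibroblast-like animals between 1.19 and 13.7, without overlap; 1 macrophage-like animal with a ratio of 0 cannot be drawn on this axis.

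Angpt1, the ligand that activates Tek, had its highest mean in CM-like cells (36.4 ± 34.6 CPM, n = 10), above fibroblast-like cells (19.4 ± 15.2, n = 11) by less than the SD, and the other 4 of these 6 classes had means between 1.30 and 7.39 CPM. T-like cells, outside these classes, had a mean of 35.9 ± 76.0 CPM (n = 5) with a median of 2.53 CPM. CM-like cells exceeded endothelial-like cells of the same animal in 9 of 10 animals. Angpt2, which destabilises vessels, was highest in mural-like cells, with 35.6 and 66.1 CPM at P4, 99.0 and 39.9 in the P7 mice and 13.9 CPM in the 1 P14 animal, above the endothelial-like cells of the same animal in 5 of 5. A single cell gave 87.5, 91.4 and 83.3% of these UMIs in the P4 and P14 animals, but only 16.8 and 31.1% in the P7 animals. In the knockdown animals, mural-like cells held 3.87, 12.4 and 0.697 CPM of Angpt2 and were above endothelial-like cells in 0 of 3. No comparison between these 2 sets was made, because they differ in age, chips and virus.

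To ask how the levels changed after birth, UMIs were summed per animal in each class with at least 20 cells and compared by edgeR (quasi-likelihood test, p-values adjusted by Benjamini-Hochberg over all genes tested). Over all 4 stages in CM-like cells (10 sums), 3 of the 10 genes passed an adjusted p of 0.05, against 7.41% of 14730 genes, and between P4 and P28 the same 3 genes rose, against 5.87% of all genes called, 3.12% higher and 2.75% lower. These were Vegfb, Kdr and Flt1. The median log2 change over the 10 genes was 1.72, and that over all genes 0.08. All 10 were tested. The stages rest on different animals, and the p-values measure the spread between those animals. The part of the P4 cluster led by atrial genes in these and the other CM-like changes from P4 was not tested. Removing the P14 cluster named above was an alternative added after seeing the data, and it left P14 with 1 animal. The log2 changes from P4 to P28 were then 1.70 for Vegfb, 1.99 for Kdr, 3.21 for Flt1 and 1.69 for Vegfa. The removed cells are all of P14 and enter these changes only through the shared scaling and spread. This alternative could therefore hardly move them, and it does not test the P14 levels. By CPM, 7 of the 10 genes had all P28 mice above both P4 mice, where 31.7% of all genes tested did not overlap in either direction.

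In CM-like cells Vegfb stood at 128 and 128 CPM in the 2 P4 mice, 113 in the P7 mouse, 114 and 248 in the P14 mice and 342, 262, 237, 458 and 434 CPM in the P28 mice. P28 thus lay above P4 and P7 in each of the 5 mice. The log2 change from P4 to P28 was 1.73 ± 0.38 (SE, edgeR adjusted p = 0.0123). Kdr stood at 31.9 and 31.6 CPM at P4, 59.7 in the P7 mouse, 25.6 and 49.9 at P14 and 109, 147, 88.3, 83.4 and 76.2 CPM at P28, where each mouse exceeded those of P4 and P7. It rose by 2.01 ± 0.44 (edgeR adjusted p = 0.0115). Flt1 stood at 14.5 and 11.5 CPM at P4, 51.8 in the P7 mouse, 63.8 and 43.0 at P14 and 81.2, 59.1, 75.3, 111 and 177 CPM at P28, so P4 lay below the P7 and P28 mice. It rose by 3.24 ± 0.49 (edgeR adjusted p = 0.00135), although 1 cell gave 80.6% of its UMIs at P7. Without P4 mouse 1 or without P4 mouse 2, Flt1 stayed past the threshold, whereas Vegfb (log2 changes 1.67 and 1.801, adjusted p = 0.171 and 0.141) and Kdr (1.96 and 2.07, adjusted p = 0.152 and 0.134) did not. Without either of these mice 0 of the 10 genes passed over the stages.

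Endothelial markers were also higher at later stages in the same CM-like sums. The 8 markers together, none at 0 in any animal, held 292 to 536 CPM at P4, 588 in the P7 mouse, 750.3 to 965 at P14 and 967 to 1435 CPM at P28, and their part in the rise of Kdr and Flt1 was not tested. With cells thinned to 2000 UMIs, Kdr was seen in 5.77% of CM-like cells at P4 and 13.3% at P28, against 10.4 and 11.2% of macrophage-like cells, and the part of free RNA in either value was not tested. When cells were assigned to classes one by one in place of by cluster, Kdr changed by 0.37 (edgeR adjusted p = 0.685) and Flt1 by 0.80 (0.129) and neither passed, whereas Vegfb changed by 2.23 (0.00378). Without cells that carried markers of several classes, Kdr changed by 1.24 (0.457), Flt1 by 4.65 (0.00365) and Vegfb by 2.66 (0.0368). From P4 to P28 Vegfb thus passed in both of these settings, whereas over the 4 stages Flt1 passed in both and Vegfb only with cells assigned one by one.

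Vegfa in CM-like cells stood at 38.2 and 74.1 CPM at P4, 51.8 in the P7 mouse, 118 and 169 at P14 and 162, 275, 139.8, 57.4 and 85.1 CPM at P28. The P28 animals overlapped the P4 animals. The log2 change from P4 was 1.71 ± 0.57 (edgeR adjusted p = 0.0814) and did not pass, but it passed without P28 mouse 4 (1.92, adjusted p = 0.0326) and with DESeq2 (1.77, adjusted p = 0.0173). P28 mice 4 and 5, which shared chips of their own, had the lowest Vegfa and Angpt1 and the highest Vegfb and Flt1 of the 5 P28 mice. In these 2 mice mitochondrial genes took 30.4 and 41.7% of UMIs, against 51.5 to 55.7% in the other 3, and the part of this in the values was not tested. Angpt1 stood at 101 and 44.1 CPM at P4, 2.88 in the P7 mouse, 6.36 and 62.0 at P14 and 25.0, 80.7, 25.4, 11.1 and 5.12 CPM at P28, and its log2 change was −0.87 ± 0.79 (adjusted p = 0.542). Vegfc was near the limit of detection in CM-like cells, with 0 UMIs at P7, which allows up to 2.16 CPM, and 12.8 CPM at most at P28 (log2 change 3.96 ± 1.26, adjusted p = 0.0712). From P4 to P28 Vegfc passed with DESeq2 and with edgeR without the filter on low counts. Nrp1 (0.97 ± 0.33), Tek (0.997 ± 0.456), Flt4 (1.87 ± 0.90) and Angpt2 (0.44 ± 1.35) did not pass (edgeR adjusted p between 0.0933 and 0.883).

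**Figure D3:**
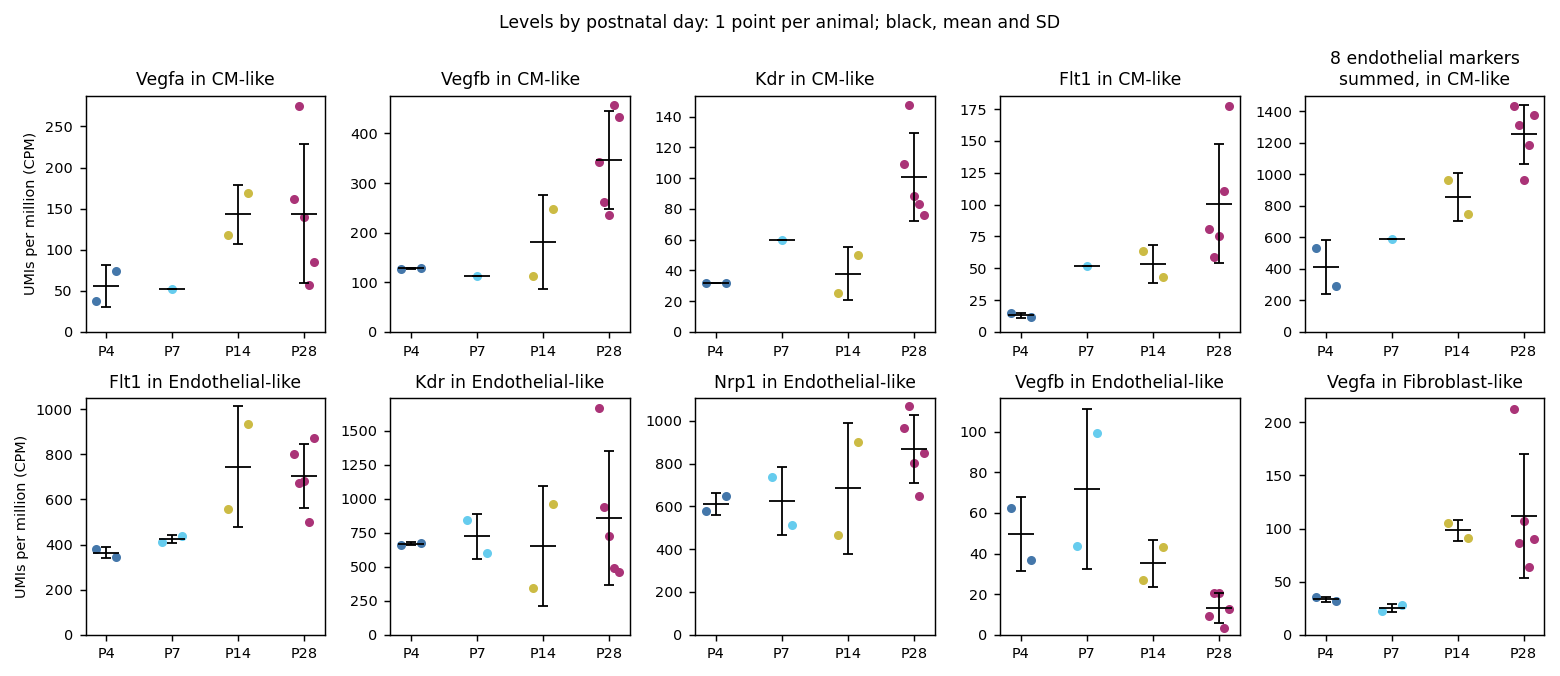
Level in CPM (vertical axis) by postnatal day for 9 combinations of gene and class and for the 8 endothelial markers summed in CM-like cells, with 1 point per animal and a black mean and SD where a stage has more than 1 animal. In CM-like cells Vegfb, Kdr, Flt1 and the endothelial markers are higher at P28 than at P4 in each animal; in endothelial-like cells Flt1 is higher and Vegfb lower at P28.

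In endothelial-like cells Kdr, Flt1 and Nrp1 were above their levels in the other large classes already at P4. Over the 4 stages (11 sums), 1 of the 10 genes passed, against 3.35% of 14125 genes, and from P4 to P28 0 of 10 passed, against 1.91% of all genes, 0.758% higher and 1.15% lower. By CPM 4 of the 10 did not overlap between P4 and P28, against 21.1% of all genes tested. At an unadjusted p under 0.05, Vegfb, Flt1 and Nrp1 differed between P4 and P28 by edgeR, and with DESeq2 Flt1 passed, joined by Vegfb over the stages. Flt1 stood at 382 and 346 CPM at P4, 411 and 437 in the P7 mice, 555 and 935 at P14 and 801, 671, 684, 499.8 and 870.2 CPM at P28. Each P14 and P28 mouse exceeded each P4 and P7 mouse, with the stage test at an adjusted p of 0.0431 by edgeR and a log2 change of 1.23 ± 0.34 from P4 to P28 (adjusted p = 0.0730). The stage call was lost when any 1 of 9 of the 11 animals was left out, namely any P4, P7 or P14 mouse or P28 mouse 1, 2 or 3, after which 0 of the 10 genes passed. It was also lost without the filter on low counts, with at least 1000 genes per cell, with cells assigned one by one and with a looser rule for cluster names. P14 and P28 are also the perfused hearts, which cannot be told apart from age.

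Kdr in endothelial-like cells stood at 662 and 676 CPM at P4, 840.2 and 604 in the P7 mice, 342 and 963 at P14 and 1665, 941, 725, 488 and 464 CPM at P28. The P28 mice surrounded the P4 mice, and the log2 change was 0.57 ± 0.42 (edgeR adjusted p = 0.582). Nrp1 stood at 576 and 649 CPM at P4 and at 964, 1069.8, 801, 649.6 and 851 CPM at P28, with a log2 change of 0.76 ± 0.30 (adjusted p = 0.251), each P28 mouse at or above the P4 mice. Tek stood at 206 and 196 CPM at P4 and at 160.2, 434, 301, 145 and 108 CPM at P28, with a log2 change of 0.41 ± 0.45 (adjusted p = 0.743). Neither passed. Flt4 (−0.88 ± 0.72) and Angpt2 (−2.16 ± 1.06), which is made by angiogenic endothelium, did not pass either (adjusted p = 0.636 and 0.373); Angpt2 lay at 23.7 and 17.8 CPM at P4 and at 1.30, 1.86, 8.94, 0 and 5.37 CPM at P28, without overlap. Erythroid genes, chiefly haemoglobin, took 560 to 6822 CPM of these sums at P4 and P7, 66105 to 231261 at P14 and 9389 to 273161 CPM at P28. Leaving these genes out of the totals, an alternative added after seeing the data, left the number of genes that passed at 1 and 0.

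Vegfb in endothelial-like cells stood at 62.5 and 36.7 CPM at P4, 43.9 and 99.6 in the P7 mice, 26.8 and 43.4 at P14 and 9.12, 20.5, 20.5, 3.26 and 12.5 CPM at P28. All 5 P28 mice lay below all earlier mice, but the log2 change of −1.64 ± 0.67 did not pass (edgeR adjusted p = 0.264). In the same sums the 8 CM markers, none at 0, held 9081 to 14007 CPM up to P14 and 944 to 2289 CPM at P28, and their part in the Vegfb values was not tested. With cells assigned one by one the change of Vegfb was 1.13 and with a looser rule for cluster names 1.0, both of the opposite sign.

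In fibroblast-like cells 1 of the 10 genes passed over the stages, against 3.71% of 13490 genes, and 0 of 10 from P4 to P28, against 2.78% of all genes, 1.03% higher and 1.75% lower; Vegfa and Vegfc had an unadjusted p under 0.05, and DESeq2 called 1, Vegfa. By CPM 1 of the 10, Vegfa, did not overlap between P4 and P28, against 21% of all genes tested. Vegfa stood at 35.3 and 31.9 CPM at P4, 22.8 and 27.9 in the P7 mice, 105 and 91.5 at P14 and 213, 86.7, 107, 63.4 and 90.1 CPM at P28. Each P14 and P28 mouse exceeded each P4 and P7 mouse, and the stage test gave an adjusted p of 0.0358 by edgeR, with a log2 change from P4 to P28 of 1.89 ± 0.55 (adjusted p = 0.0864). A single cell gave 63.2 and 82.4% of the Vegfa UMIs in P28 mice 4 and 5 and 50.9% in P14 mouse 2. The stage call was lost without any 1 of the P4, P7 or P14 mice or of P28 mice 1, 2 and 3, after which 0 of the 10 genes passed. In the other 9 genes the log2 changes from P4 to P28 ran from −1.45 for Angpt2 to 2.69 for Vegfc, and the median over the 10 genes was 0.09 against 0.06 over all genes.

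In macrophage-like cells 7 of the 10 genes had enough UMIs to be tested, Vegfc, Flt4 and Angpt1 being too low. Of these, 0 passed over the stages, against 2.3% of 11563 genes, and 0 from P4 to P28, against 0.856% of all genes, 0.268% higher and 0.588% lower; Vegfb had an unadjusted p under 0.05, and DESeq2 called it over the stages. By CPM 1 of the 7, Vegfb, did not overlap between P4 and P28, against 21.1% of all genes tested. Vegfb stood at 62.6 and 76.9 CPM at P4, 47.6 and 195 in the P7 mice, 37.2 and 5.11 at P14 and 31.6, 18.7, 12.6, 12.04 and 3.58 CPM (2 UMIs) at P28. All P28 mice lay below the P4 and P7 mice, with a log2 change of −2.08 ± 0.82 that did not pass (edgeR adjusted p = 0.287), and in the same sums the 8 CM markers, none at 0, went from 16800 and 20184 CPM at P4 to between 1105 and 3440 CPM at P28. Their part in the Vegfb values was not tested.

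Other genes of the pathways were read from 4 lists, of which 8, 10, 13 and 17 genes could be tested in CM-like cells. Among 8 tested relatives of the ligands and receptors, 3 rose from P4 to P28 in CM-like cells and 1 fell, by edgeR. Of all genes tested there, 3.12% were called higher and 2.75% lower. Ptprb, a phosphatase that restrains Tie2, rose by 2.43 ± 0.44 (adjusted p = 0.00402), the co-receptor Nrp2 by 2.70 ± 0.53 (0.00666) and the semaphorin receptor Plxnd1 by 2.30 ± 0.64 (0.0415), while Angptl4, a secreted inhibitor of lipoprotein lipase, fell by 4.77 on the log2 scale (SE 0.83, adjusted p = 0.00325). Of 13 genes of angiogenic endothelium only Dll4, a Notch ligand of vessel sprouts, rose (3.70 ± 1.03, 0.0422), and of 17 hypoxia and Vegfa upstream genes 2 rose, Epas1, which encodes a hypoxia-inducible factor (2.80 ± 0.43, 0.00154), and Egln1, an oxygen sensor that marks such factors for decay (1.52 ± 0.40, 0.0330). None of 10 downstream signalling genes passed. Ptprb, Dll4 and Epas1 are also known as endothelial genes, and the endothelial markers moved with them as given above. The medians over these lists were 1.46, 1.41, 0.43 and 0.47 for the relatives, the angiogenic, the hypoxia and the downstream genes. The median over all genes was 0.08.

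In endothelial-like cells Ptprb rose from P4 to P28 by 1.86 ± 0.34 (edgeR adjusted p = 0.00951) and Epas1 by 1.62 ± 0.38 (0.0386). Sema3d, a repulsive guidance ligand, fell by 5.18 on the log2 scale (SE 1.03, adjusted p = 0.0143), and Kcne3, a potassium channel subunit known from sprouting tip cells, fell by 4.25 (SE 0.97, 0.0313). These were 1 higher and 1 lower of 9 tested relatives, 0 higher and 1 lower of 13 angiogenic genes, 1 higher and 0 lower of 16 hypoxia genes and 0 of 11 downstream genes. Of all genes tested in endothelial-like cells, 0.758% were called higher and 1.15% lower. Over the 4 stages Pdgfb, which recruits mural cells, passed too (adjusted p = 0.00811), as did Ppargc1a, a regulator of mitochondria and of Vegfa (0.0449). In fibroblast-like and macrophage-like cells 0 genes of the 4 lists passed.

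The knockdown was then examined, starting with its target. In CM-like cells Jun stood at 53.7 and 67.2 CPM in the shNT animals and at 25.4 and 26.2 CPM in the shJun animals, without overlap. The log2 change was −1.29 ± 0.24, with an unadjusted edgeR p of 0.00145 and an adjusted p of 0.9999, in a comparison in which 0% of 16860 genes passed. In endothelial-like cells Jun stood at 119 and 100.3 against 125 and 146 CPM, in fibroblast-like cells at 66.6 and 122 against 140.4 and 189, and in macrophage-like cells at 68.3 and 285 against 192 and 80.4 CPM. The shJun animals thus lay above the shNT animals in endothelial- and fibroblast-like cells and overlapped them in macrophage-like cells, with log2 changes of 0.07 ± 0.55, 0.75 ± 0.53 and −0.46 ± 0.79 that did not pass. In wild-type CM-like cells Jun rose from P4 to P28 (1.84 ± 0.40, edgeR adjusted p = 0.0118).

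With 2 animals per hairpin, 0 of the 10 genes passed in any of the 4 classes, against 0% of 16860, 13916, 14168 and 12787 genes in CM-, endothelial-, fibroblast- and macrophage-like cells by edgeR. At an unadjusted p under 0.05 edgeR gave 479, 685, 640 and 565 genes, among them Flt4 in CM- and fibroblast-like cells, and DESeq2 called 30, 172, 88 and 86 genes, the latter none of the 10. With the pair of animals that shared chips as a block, edgeR called 12 genes in CM-like cells and 0 in the other 3 classes, again none of the 10. An exact permutation test of 2 against 2 animals cannot go below p = 0.333. By CPM 5, 2, 2 and 2 of the 10 genes did not overlap between the hairpins in these 4 classes, against 26.5, 33.3, 31 and 28.7% of all genes tested. Vegfa stood at 265 and 225 CPM with shNT and at 237 and 223 CPM with shJun, with a log2 change of −0.15 ± 0.18. Vegfb stood at 505 and 473 CPM with shNT and at 438 and 459 CPM with shJun, with a log2 change of −0.18 ± 0.19. The Vegfa groups overlapped and the Vegfb groups did not, and either change was smaller than its SE. Angpt1 stood at 76.1 and 58.0 CPM with shNT and at 39.7 and 55.7 CPM with shJun, so the groups did not overlap, with a log2 change of −0.53 ± 0.26 (unadjusted p = 0.0853, adjusted p = 0.9999).

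Among the receptors in CM-like cells, Kdr stood at 67.2 and 96.9 CPM with shNT and at 188 and 74.0 CPM with shJun, where 1 cell gave 15.6% of the higher value, and its log2 change was 0.60 ± 0.43. Flt4 stood at 1.57 and 2.06 against 4.71 and 4.21 CPM (1.24 ± 0.51, unadjusted p = 0.0476) and Tek at 9.60 and 22.0 against 25.6 and 30.4 CPM (0.76 ± 0.44). Neither gene overlapped between hairpins, and neither passed (edgeR adjusted p = 0.9999 for both). The 8 endothelial markers summed in these CM-like cells gave 458 and 1101 CPM with shNT and 1032 and 701 CPM with shJun, and their part in these values was not tested. In endothelial-like cells Kdr stood at 1107 and 1119 CPM with shNT and at 1474 and 1646 CPM with shJun, without overlap, and its log2 change on the scale of the fit was 0.25 ± 0.40 (adjusted p = 0.984). Flt1 stood at 589 and 1528 against 1327 and 1538 CPM (0.15 ± 0.56). Vegfa in endothelial-like cells stood at 70.3 and 30.2 against 24.9 and 16.2 CPM (−1.48 ± 0.89, adjusted p = 0.945), and the CM markers in those sums were 19141 and 5847 against 4144 and 6463 CPM. In fibroblast- and macrophage-like cells the sums held 14785 to 57844 CPM of CM markers, and the log2 changes of the 10 genes ran from −1.54 for Angpt2 to 3.26 for Flt4 in fibroblast-like cells, from 1.99 and 0.661 CPM to 19.0 and 6.59 CPM. None of the 4 pathway lists had a gene that passed in any class.

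**Figure D4:**
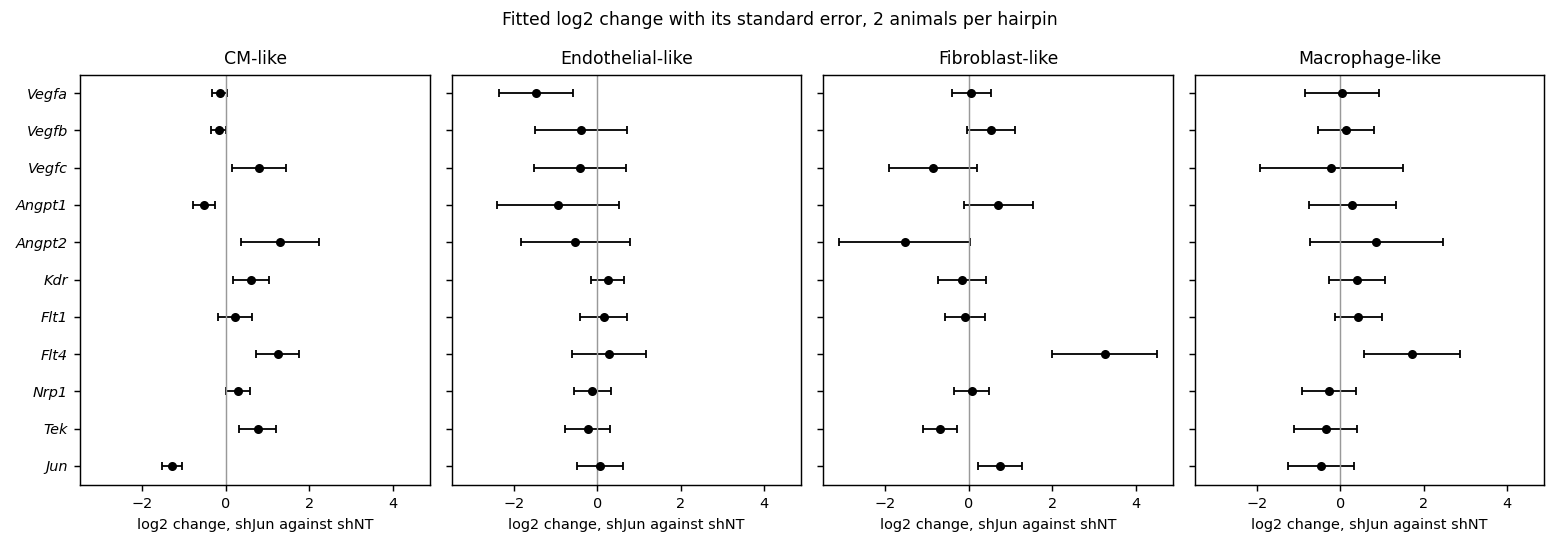
Fitted log2 change of the 10 genes and Jun, shJun against shNT (horizontal axis), in 4 cell classes, with points for the edgeR estimate and bars for 1 standard error over 2 animals per hairpin. In CM-like cells Jun lies at −1.29 and Vegfa and Vegfb at −0.15 and −0.18, while the bars of lowly counted genes such as Angpt2 and Flt4 are wide.

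Genes whose levels ran most like 3 of the members were looked up over 16 points, the 4 large classes at 4 stages, among 11099 genes. For Kdr these were Cav1 (Pearson's r = 0.980), Cdh5 (0.971) and Icam2 (0.970), of which Cav1 and Cdh5 are also class markers. For Vegfa they were Kcmf1 (0.874), Ces1d (0.861) and E2f6 (0.852), and for Angpt1 Pigp (0.837), Sp3os (0.828) and Dixdc1 (0.813). Points share libraries and depth, and the values are a description.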

How the data were processed

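Polyadenylated RNA of single heart cells was sequenced on 18 nanowell chips, and the authors deposited 1 matrix of raw UMI counts per gene and well and 1 well report for each chip. Per the labels and the methods, reads were aligned to mm10 with STAR 2.5.2b and assigned to Ensembl genes with featureCounts (Subread 1.4.6-p1), and UMIs were collapsed per gene and well. The annotation release and the strand of counting are not given in the sources used here, so Angpt1 cannot be told apart from its antisense neighbour Gm17473, and a count per gene does not separate isoforms.

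The animal and hairpin of each well were read from the well report, as the labels direct. Cells with at least 500 genes and log10 UMIs within 2 SD of their group were kept (no doublet caller was run). Cells were clustered within each stage and knockdown animal (leidenalg 0.10.2) without the 10 genes and 53 pathway genes. A cluster was named only when at least 3 fixed markers were found in 20% of its cells. Its marker score also had to lead by 0.5 the next class with at least 3 such markers. Erythroid markers did not count as a rival, nor did endothelial and endocardial markers count as rivals of each other. Some named clusters thus lay within 0.5 of another class. That margin was set after the clusters, but before any of the 10 genes, had been seen, and names can differ from those of the study. The members and lists were chosen with earlier results of these data known. Genes named are the 10 members, up to 4 genes of each list with the smallest p among those that passed, the 3 genes most like Vegfa, Kdr and Angpt1, and Jun.

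UMIs were summed per animal and class with at least 20 cells and tested with edgeR 4.0.16 in R 4.3.3 (TMM, filterByExpr, quasi-likelihood test, Benjamini-Hochberg threshold of 0.05 over all genes). The sums held 558469 to 17604735 gene UMIs in the stage fits. CPM levels are given before TMM scaling and log2 changes after it, with SE derived from the F statistic. DESeq2 1.42.0 served as an alternative. The code was tested on simulated data with known changes. Depending on the comparison, 0 to 5.32% of simulated 2-fold changes and 0 to 34.4% of 4-fold changes passed. For P28 against P4 in CM-like cells, 2 simulated 2-fold and 11 4-fold changes passed, beside 3 genes simulated without a change. For shJun against shNT in CM-like cells these numbers were 0, 28 and 10. In both, false calls made up a larger share of the calls than the threshold of 0.05. The other comparisons had 0 to 2 false calls. For P28 against P4, no 4-fold change passed in endothelial- or fibroblast-like cells. For shJun against shNT, none passed in endothelial- or macrophage-like cells. A gene that did not pass is therefore not shown to be unchanged. shJun and shNT animals that shared chips were taken as pairs, and the correlation of the deviations of paired animals from their group means over genes was 0.355 for CM-like cells, 0.0191 for endothelial-like cells, 0.107 for fibroblast-like cells and 0.0561 for macrophage-like cells. Intervals of shares are exact (Clopper-Pearson) 95% intervals.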

Additional observations from a re-analysis of the deposited data

Results flagged for a closer look

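In 40 groups of 4 to 10 animals of a gene, class and stage, 2 held an animal far from the others by Dixon's criterion, which chance gives in about 1 of 20 groups. Angpt1 in CM-like cells of P28 mouse 2 stood at 80.7 CPM (205 UMIs in 294 cells, 29.8% of them in 1 cell), above the other 4 P28 mice at 5.12 to 25.4 CPM. Tek in macrophage-like cells of the same mouse stood at 148 CPM (334 UMIs in 149 cells, 65.9% in 1 cell), above the others at 4.68 to 43.0 CPM.

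The log2 change of Vegfb between P4 and P28 had opposite signs in different classes. It was 1.73 in CM-like cells and passed (edgeR adjusted p = 0.0123), with each of the 5 P28 mice above both P4 mice. It was −1.64 in endothelial-like and −2.08 in macrophage-like cells, where neither passed (0.264 and 0.287), with each P28 mouse below both P4 mice. In endothelial-like cells the sign turned under 2 settings, to 1.13 and 1.0. The 8 CM markers in the same sums went from between 9081 and 14007 CPM up to P14 to between 944 and 2289 CPM at P28 in endothelial-like cells, and from 16800 and 20184 CPM at P4 to between 1105 and 3440 CPM at P28 in macrophage-like cells, and their part was not tested. The difference between classes was not tested.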

How the results depend on the processing

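Of 117 alternatives of counts and levels that left out no animal, 101 stayed within 1.5 times of the value reported. So did 91 of 113 that left out 1 animal. Counts of 0 that stayed at 0 were taken as within this range. The reported count was 0 for shJun against shNT in each class, and from P4 to P28 in endothelial-, fibroblast- and macrophage-like cells. It was also 0 over the stages in macrophage-like cells. For shJun against shNT 0% of all genes passed by edgeR, so these shares do not measure how stable such counts are. Of 144 alternatives of 7 single changes, 142 kept their direction. In CM-like cells the number of the 10 genes that passed over the stages was 3, and it was 5 with DESeq2, 6 without the filter on low counts, 5 with classes assigned cell by cell and 1 without cells that held markers of several classes. From P4 to P28 it was 6 with DESeq2 and 5 without the filter. DESeq2 also called more of all genes in CM-like cells. It called 2624 over the stages and 1670 from P4 to P28, against 1092 and 865 by edgeR. Counts over all genes under the other alternatives are not given here. In endothelial-like cells the count over the stages was 2 with DESeq2 and 0 without the filter, with at least 1000 genes per cell, with cell by cell classes and with a name margin of 0.2, and from P4 to P28 it was 1 with DESeq2. In fibroblast-like cells the stage count was 0 with at most 5000 UMIs of any cell and with cell by cell classes, and DESeq2 gave 1 from P4 to P28. In macrophage-like cells DESeq2 gave 1 over the stages. Of all genes in endothelial-like cells, DESeq2 called 1424 over the stages and 919 from P4 to P28, against 473 and 270 by edgeR. It called 836 against 375 from P4 to P28 in fibroblast-like cells and 1508 against 266 over the stages in macrophage-like cells. The change of Vegfb in endothelial-like cells reversed, to 1.13 with cell by cell classes and to 1.0 with the name margin of 0.2. The causes were not tested. Kdr in CM-like cells changed by 1.74 (edgeR adjusted p = 0.0539) with at most 5000 UMIs of any cell, and Vegfa there passed without the filter (1.63, adjusted p = 0.0127) and with cell by cell classes (1.94, 0.0197).

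Leaving out 1 animal gave 0 to 4 genes over the stages and 1 to 4 from P4 to P28 in CM-like cells, 0 to 1 over the stages in endothelial-like and in fibroblast-like cells, and 0 to 0 in the other comparisons. Of the 10 genes 7 had their highest mean among the 4 large classes in endothelial-like cells, with 7 to 7 when 1 animal was left out. The log2 changes from P4 to P28 ranged from 1.25 to 2.35 for Vegfa, 1.62 to 1.82 for Vegfb, 1.76 to 2.12 for Kdr and 2.996 to 3.35 for Flt1 in CM-like cells, from −2.01 to −1.22 for Vegfb and 1.03 to 1.29 for Flt1 in endothelial-like cells, and from 1.54 to 1.99 for Vegfa in fibroblast-like cells. DESeq2's scaling moved the median change of all genes from 0.08 to 0.18 in endothelial-like cells.

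For shJun against shNT, the replicate block for animals that shared chips gave 0 of the 10 genes in each class and changed no call of these genes. No paired analysis was possible because the stages rest on different animals whose numbers do not link them. The fits without cells holding markers of several classes in endothelial-, fibroblast- and macrophage-like cells, and with cell by cell classes in macrophage-like cells, were not run, since too few animals kept 20 cells. The name margin of 0.2, the removal of 1 P14 cluster, because its leading genes hold a mural and no CM marker, of haemoglobin genes and of CM-like cells with an endothelial marker UMI were chosen after seeing the data, and the last left no P4 animal with 20 cells. Angpt1, Angpt2, Vegfc and Flt4 rest on few UMIs and are limited by depth in most classes.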
